A study of Homo sapiens with 12 samples.

Results

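The 10 genes described here encode transcription factors of the AP-1 and EGR immediate-early group: FOS, FOSB, FOSL1, FOSL2, JUN, JUNB, JUND, EGR1, EGR3 and ATF3. They were listed by name and matched to Ensembl identifiers by symbol, and all 10 were present among the 61860 genes of one count table and the 62700 genes of the other. They were selected on their levels and fold changes in these same comparisons, which earlier results had shown, among them lower FOSB and FOS in cells given the ITGB4 plasmid. The members' values in these comparisons are therefore given as a description, with no p-value. All RNA came from RT4, a line of human papillary bladder tumour cells, in 2 experiments of 6 libraries each. In the first, 3 libraries were of RT4 cells carrying a Flag-ITGB4 plasmid, which encodes an integrin beta subunit, and 3 of RT4 cells carrying the empty Flag vector. The labels give both groups a transfection or infection, with no time after it. For replicates 2 and 3 of this experiment another label field names ITGB5 or ITGB6, where the titles name ITGB4. In the second, 3 libraries came from a cisplatin-resistant RT4 line labelled with cisplatin treatment, and 3 from parental RT4 cells labelled with PBS treatment. The genotype label of both is WT, and no dose, time or clone is stated. The columns taken as parental are headed NC, which no label of a parental sample holds, so this assignment is an inference. The letters a, b and c name those libraries below.

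AP-1 is a dimer of basic leucine zipper proteins. FOS proteins cannot pair with themselves and bind DNA with a JUN partner, while JUN proteins can also pair among themselves. Immediate-early genes are transcribed within minutes of growth factor, stress or adhesion signals from factors already present in the cell, and the FOS, FOSB and EGR transcripts decay fast. Among epithelial cells FOSL1 and FOSL2 are longer-lived members of the FOS family, EGR proteins are zinc finger factors, and ATF3 is a stress-induced zipper protein that can pair with JUN proteins.

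Library totals were 22701466 to 33352045 counts for overexpression and 31824582 to 38199946 counts for resistance. ITGB4 itself stood at 1427 ± 53.6 CPM (counts scaled to library size with TMM factors) in plasmid cells and 869 ± 10.97 CPM in vector cells (SD, n = 3), and at 837 ± 9.37 CPM in resistant and 600.0 ± 2.09 CPM in parental cells. Of 14 urothelial markers, 12 were at 1 CPM or more in every group and KRT20 had no count in any library. The 6 leukocyte markers together stayed at or under 1.12 CPM. The 7 fibroblast markers summed to 24.5 to 26.1 CPM in plasmid and 48.3 to 52.3 CPM in vector libraries, and to 4.43 to 5.73 CPM in resistant and 11.5 to 12.02 CPM in parental libraries. Of them 2 were at 1 CPM or more in plasmid and in vector cells, and 1 in resistant and in parental cells, while DCN and LUM were at 0 in plasmid cells and COL1A2 and PDGFRA in both groups of the other experiment. The 4 endothelial markers summed to at most 2.51 CPM in any library. The part of those markers in the results below was not tested. No label states separate cultures for the replicates, and the spread between them may be technical. In such bulk libraries, fewer cells with a transcript and less of it per cell cannot be told apart.

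The start-proximal DNA of 4 members is shown because 3 of them, FOS, FOSB and EGR1, were lower in plasmid cells and higher in resistant cells, while FOSL2 had the opposite sign in both experiments. JUND and ATF3 had the same pair of signs as FOS, but their windows are not printed. No ATF3 window held TGACGT. Each line gives the 250 bases before the RefSeq start on GRCh38.p14, all on the plus strand, 5′ to 3′. FOS is at chr14:75278578-75278827, FOSB at chr19:45467746-45467995, EGR1 at chr5:138465229-138465478 and FOSL2 at chr2:28392608-28392857. Capitals mark TGACGT on either strand, the core of the cAMP response element bound by CREB and ATF factors, and the CArG box, the site of serum response factor.
FOS: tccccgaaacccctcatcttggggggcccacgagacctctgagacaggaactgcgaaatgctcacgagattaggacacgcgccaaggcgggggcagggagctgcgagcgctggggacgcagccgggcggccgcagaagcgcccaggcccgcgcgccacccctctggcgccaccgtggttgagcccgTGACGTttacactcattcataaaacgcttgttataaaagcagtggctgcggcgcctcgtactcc
FOSB: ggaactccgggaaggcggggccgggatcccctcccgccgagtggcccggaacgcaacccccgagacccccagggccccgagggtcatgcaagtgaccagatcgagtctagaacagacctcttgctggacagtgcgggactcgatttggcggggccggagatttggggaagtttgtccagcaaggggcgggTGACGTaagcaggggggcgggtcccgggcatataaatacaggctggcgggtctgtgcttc
EGR1: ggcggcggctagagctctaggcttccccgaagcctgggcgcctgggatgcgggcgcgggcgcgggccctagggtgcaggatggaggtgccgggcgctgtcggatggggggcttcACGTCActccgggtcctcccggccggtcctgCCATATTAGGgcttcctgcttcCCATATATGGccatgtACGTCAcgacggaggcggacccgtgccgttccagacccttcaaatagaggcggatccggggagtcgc
FOSL2: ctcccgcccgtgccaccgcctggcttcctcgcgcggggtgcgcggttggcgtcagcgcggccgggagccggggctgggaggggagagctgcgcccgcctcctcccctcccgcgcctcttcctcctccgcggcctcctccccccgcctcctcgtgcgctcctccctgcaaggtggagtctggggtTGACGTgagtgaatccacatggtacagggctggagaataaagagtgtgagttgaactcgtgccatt

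The core TGACGT began 64 bases before the RefSeq start in FOS, 60 in FOSB and 66 in FOSL2, on the gene's own strand. In EGR1 its reverse complement spanned 136 to 131 and 67 to 62 bases before the start, with CArG boxes at 105 to 96 and 83 to 74 bases. Of the 8 members with a window, 5 held TGACGT, the fifth being JUND, against 7.10% of 35116 RefSeq windows of the same length. The related TGACATCA was found in JUN, 67 to 60 bases before its start, and in 1 of the 2 windows of ATF3, against 2.37% of windows. JUND also held the full TGACGTCA, which contains the core, against 1.65%. The CArG box was found only in EGR1 among these members, against 1.16% of windows. No member window held TGAGTCA, an AP-1 site, GCGTGGGCG, an EGR site, or TTCCNGGAA, a STAT site, which stood in 4.20%, 0.720% and 0.968% of windows. All motifs were searched on both strands and chosen after these windows were seen, and FOSL1 and EGR3 had no window. Bases further than 250 before the start were not searched, so a site missing here may lie outside the window.

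In the overexpression experiment all 10 members were tested, with edgeR's quasi-likelihood test over 16950 genes and a call at an adjusted p under 0.05. All 10 were called, 9 lower in plasmid cells and 1, FOSL2, higher. EGR3, among the lower ones, passed the low-count filter through the vector libraries alone and could only be called lower. Of all genes tested there 72.2% were called, 35.7% lower and 36.5% higher. The median log2 fold change of the members was -0.60, against 0.0017 for all genes tested. In the resistance experiment 9 members were tested among 16875 genes. There 5 were called higher in resistant cells, FOS, FOSB, JUND, EGR1 and ATF3, and 3 lower, FOSL1, FOSL2 and JUNB, while JUN was not called. Of all genes in that comparison 54.5% were called, 26.8% higher and 27.7% lower, and the median log2 fold change was 0.36 for the 9 members and 0.018 for all genes. The rule chose the members with these contrasts known, so nothing is read from these counts.

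**Figure D1:**
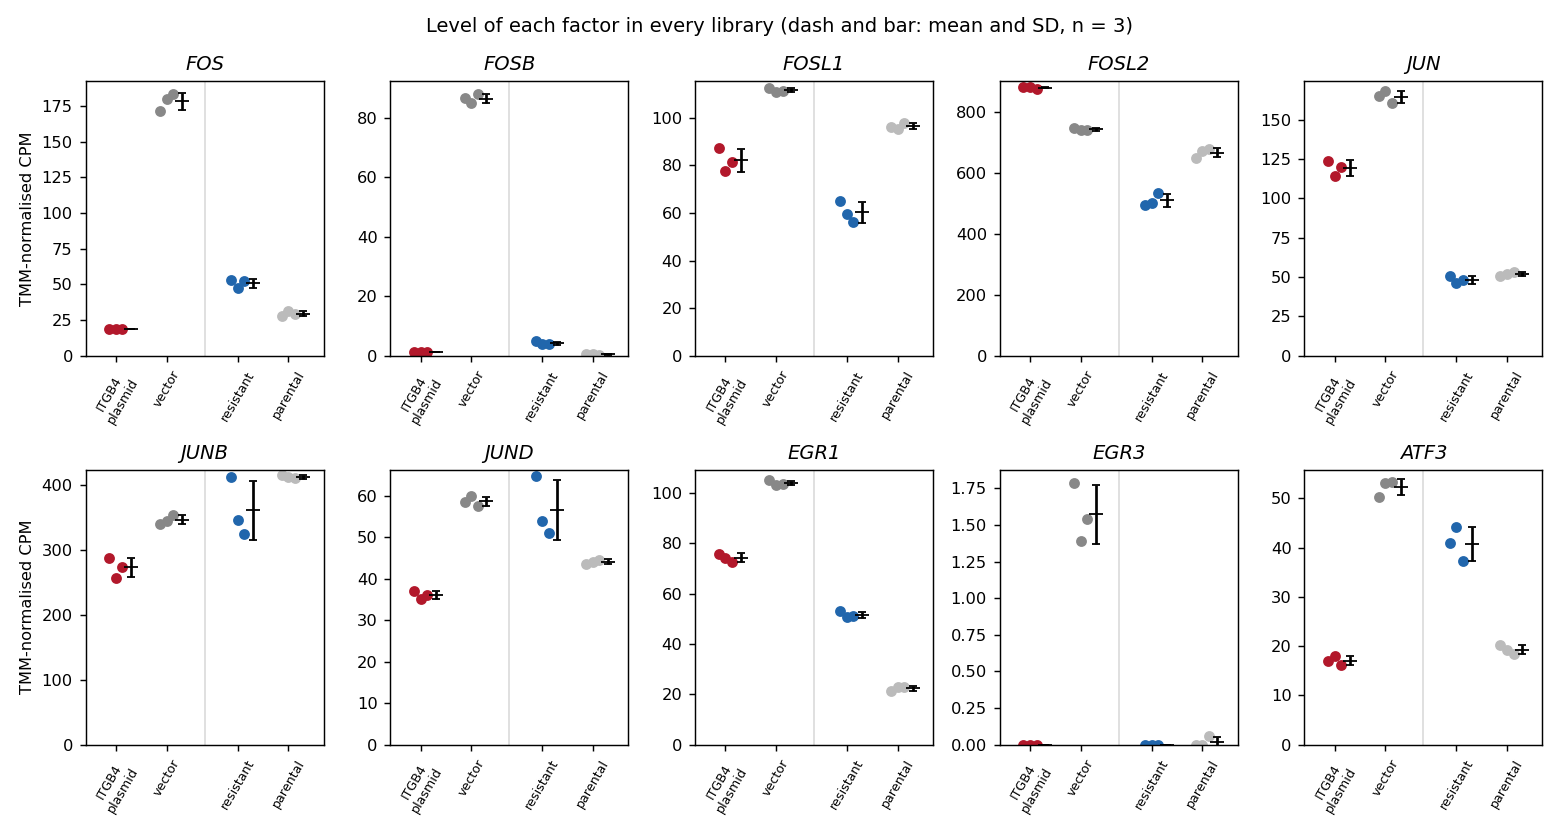
TMM-normalised CPM (vertical axis, starting at 0) of each of the 10 factors in every library, with plasmid and vector libraries left of the grey line and resistant and parental libraries right of it; the dash and bar give mean and SD of 3 libraries. FOS stood at a mean of 18.8 CPM in plasmid, 178 in vector, 50.9 in resistant and 29.5 in parental cells. FOSB stood at 1.33, 86.3, 4.28 and 0.534 CPM in the same order. FOSL2 stood highest in plasmid cells, at 880.1 CPM. The tables of the experiments were normalised separately.

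FOS, the founding member of its family, spans 75278774 to 75282230 of chromosome 14, plus strand, in GENCODE 29 on GRCh38 (ENSG00000170345, 3 exon blocks). It stood at 19.2, 18.6 and 18.7 CPM in plasmid libraries 1, 2 and 3, against 172, 179.7 and 183 CPM in vector libraries 1, 2 and 3. The groups were far apart and each was tight, with a coefficient of variation of 1.57% in plasmid and 3.38% in vector cells. FOS was 9.48-fold lower in plasmid cells, a log2 fold change of -3.25 ± 0.040. That placed it at rank 84 of 16950 genes from the lowest. Beside a log2 fold change, ± approximates a standard error. Beside a level, share or ratio, it is the SD of 3 libraries. In the resistance experiment FOS stood at 52.9, 47.4 and 52.4 CPM in resistant libraries 1, 2 and 3, against 28.1, 31.2 and 29.2 CPM in parental libraries a, b and c. All resistant libraries were above all parental ones, by 1.72-fold (log2 0.79 ± 0.067).

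FOSB, whose product also pairs with JUN proteins, had the largest log2 fold change in both experiments among the members counted in all 4 groups. The gene (ENSG00000125740) spans 45467995 to 45475179 of chromosome 19 (plus strand). In plasmid libraries it stood at 1.30, 1.33 and 1.37 CPM, from 29, 33 and 43 counts, against 86.4, 84.7 and 87.8 CPM in vector libraries, from 2272, 2435 and 2968 counts. Its log2 fold change was -6.01 ± 0.064, 64.3-fold lower in plasmid cells, at rank 6 of all genes from the lowest. Resistant libraries had 4.87, 3.92 and 4.04 CPM, against 0.640, 0.542 and 0.421 CPM in parental libraries. Few reads lay behind these levels, 468 counts in the resistant and 56 in the parental libraries together, and the groups did not overlap. FOSB was 7.95-fold higher in resistant cells (log2 2.99 ± 0.24), at rank 73 of 16875 genes from the highest.

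FOSL1, which encodes FRA-1 and lacks the C-terminal activation domain of FOS, was lower in the tested arm of both experiments. It spans 65892049 to 65900573 of chromosome 11 (minus strand, ENSG00000175592). It stood at 87.2, 77.8 and 81.4 CPM in plasmid and at 113, 111 and 111 CPM in vector libraries, 1.36-fold lower in plasmid cells (log2 -0.44 ± 0.036). Levels were 65.0, 59.7 and 56.2 CPM in resistant libraries, against 96.3, 95.3 and 97.9 CPM in parental libraries, 1.60-fold lower (log2 -0.68 ± 0.055). In neither experiment did the groups overlap.

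FOSL2, which encodes FRA-2, was the most counted member, and spans 28392448 to 28417312 of chromosome 2 (plus strand, ENSG00000075426, 7 exon blocks). It stood at 882, 881 and 877 CPM in plasmid libraries, against 748, 741 and 740.2 CPM in vector libraries. It was thus 1.18-fold higher in plasmid cells (log2 0.24 ± 0.021), with a coefficient of variation of 0.274% among the plasmid libraries. Among resistant libraries FOSL2 stood at 495, 502 and 534 CPM, against 651, 673 and 678 CPM in parental libraries, 1.31-fold lower (log2 -0.39 ± 0.038). All libraries of each group lay on one side of the other group.

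JUN, a partner of the FOS proteins in AP-1, spans 58780788 to 58784327 of chromosome 1 (minus strand, ENSG00000177606) in 1 exon. It stood at 124, 114 and 120.02 CPM in plasmid libraries, against 165, 168 and 160.5 CPM in vector libraries, 1.38-fold lower (log2 -0.46 ± 0.033). Resistant libraries held JUN at 51.0, 46.0 and 48.2 CPM, against 50.5, 51.7 and 53.0 CPM in parental libraries. These groups overlapped, the log2 fold change was -0.10 ± 0.058, and JUN was not called. With library sizes alone its sign turned, at 0.067.

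JUNB, a JUN protein with weaker activation of many AP-1 sites than JUN, spans 12791496 to 12793315 of chromosome 19 (plus strand, ENSG00000171223). It stood at 287, 257 and 274 CPM in plasmid libraries, against 340.3, 344 and 354 CPM in vector libraries, 1.27-fold lower (log2 -0.34 ± 0.034). JUNB levels in resistant libraries were 412, 346 and 324 CPM, against 415, 411 and 410.3 CPM in parental libraries. Resistant library 1 lay among the parental libraries, and the other resistant libraries lay below them. Its log2 fold change was -0.19 ± 0.062, a call that was lost with DESeq2, with library sizes alone (-0.030), and without resistant library 2 (-0.16) or 3 (-0.12), as well as with a 1.5-fold threshold, and the value was -0.29 without resistant library 1. By GENCODE 29, 14.2% of its exon bases overlap exons of HOOK2 on the other strand, and the overexpression counts were made with no strand option.

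JUND, the JUN family member that is commonly present in unstimulated cells, spans 18279760 to 18281622 of chromosome 19 (minus strand, ENSG00000130522). It stood at 36.9, 34.99 and 36.0 CPM in plasmid libraries, against 58.4, 59.8 and 57.6 CPM in vector libraries, 1.63-fold lower (log2 -0.70 ± 0.037). For JUND the resistant libraries had 64.7, 54.0 and 51.0 CPM, against 43.5, 44.1 and 44.6 CPM in parental libraries. Resistant library 1 was again the highest, all resistant libraries lay above the parental ones, and JUND was 1.28-fold higher in resistant cells (log2 0.36 ± 0.075).

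EGR1, a zinc finger activator induced through serum response factor, spans 138465490 to 138469315 of chromosome 5 (plus strand, ENSG00000120738). It stood at 76.0, 74.4 and 72.6 CPM in plasmid libraries, against 105, 103 and 104 CPM in vector libraries, 1.40-fold lower (log2 -0.49 ± 0.031). In resistant libraries it stood at 53.0, 50.7 and 51.3 CPM, against 21.2, 22.9 and 22.8 CPM in parental libraries. There it was 2.32-fold higher (log2 1.21 ± 0.064), with no overlap and with coefficients of variation of 2.31% and 4.13%. In plasmid cells its log2 change was smaller than the -3.25 of FOS, and in resistant cells it was larger than the 0.79 of FOS, differences that were not tested.

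EGR3, a relative of EGR1 induced by many of the same signals, spans 22687659 to 22693302 of chromosome 8 (minus strand, ENSG00000179388). It had no count in any plasmid library, against 47, 40 and 52 counts in vector libraries 1, 2 and 3. It passed the low-count filter through the vector libraries alone. Taken against a chosen floor of 3 counts over the plasmid libraries together, it was 40.9-fold lower in plasmid cells. That ratio hangs on the floor and leaves out counting error in vector cells and the spread between replicates. In the resistance experiment EGR3 had 0 counts in the resistant libraries and 2, both in parental library c, so that no fold is given. EGR2, which is not a member, had 4 counts in plasmid and 118 in vector libraries, 26.0-fold lower in plasmid cells with an exact 95% counting interval of 9.91 to 97.2. EGR4, likewise no member, had 10 counts in plasmid and 69 in vector libraries, 6.09-fold lower (3.12 to 13.3). In the resistance experiment EGR2 had 26 counts in resistant and 7 in parental libraries, a ratio of 3.53 (1.49 to 9.64), and EGR4 had 10 and 10. These intervals cover counting error only, and both genes were chosen as the other EGR family members after their values were seen.

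ATF3, a stress-induced zipper factor that represses or activates depending on its partner, spans 212565334 to 212620777 of chromosome 1 (plus strand, ENSG00000162772). It stood at 17.0, 17.9 and 16.1 CPM in plasmid libraries, against 50.3, 53.1 and 53.3 CPM in vector libraries, 3.09-fold lower (log2 -1.63 ± 0.048). In resistant libraries it stood at 40.9, 44.2 and 37.2 CPM, against 20.3, 19.2 and 18.4 CPM in parental libraries, 2.11-fold higher (log2 1.08 ± 0.077). The groups were apart in both experiments.

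**Figure D2:**
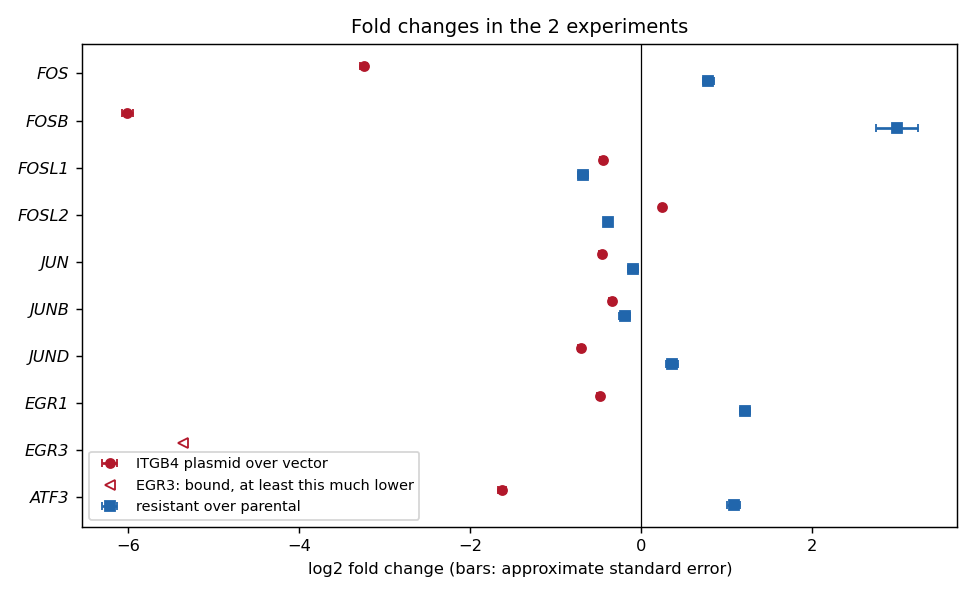
Log2 fold change (horizontal axis) of each factor, plasmid over vector as circles and resistant over parental as squares, with approximate standard errors as bars. The open triangle, labelled a bound in the legend, sets EGR3 against a floor of 3 counts over the plasmid libraries together, 40.9-fold lower. FOS, FOSB, JUND, EGR1 and ATF3 lie left of 0 for the plasmid and right of 0 for resistance, and FOSL2 lies right of 0 at 0.24 and left of 0 at -0.39.

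A stricter test asked for a change over 1.5-fold. It called 5 members lower and 0 higher in plasmid cells, FOS, FOSB, JUND, EGR3 and ATF3, where 11.4% of all genes were called lower and 11.1% higher. It called 4 members higher and 0 lower in resistant cells, FOS, FOSB, EGR1 and ATF3, where 6.17% of all genes were called higher and 6.31% lower. The groups of 3 libraries did not overlap for any of the 10 members in the overexpression experiment, with 1 higher and 9 lower, as for 74.5% of all genes tested there, 37.4% higher and 37.1% lower. In the resistance experiment they did not overlap for 7 members, 5 higher and 2 lower, as for 60.8% of genes, 30.3% higher and 30.5% lower. In the overexpression counts of this paragraph EGR3 could only come out lower, since it passed the low-count filter through the vector libraries alone.

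Levels of different genes were compared as CPM per kilobase of exon, from the union of all exons in GENCODE 29, so that a gene with a long rare exon is understated. JUNB and FOSL2 led the order in all 4 groups. In plasmid cells they stood at 149.8 ± 8.32 and 123 ± 0.336 CPM per kilobase, against 190.1 ± 3.78 and 103.8 ± 0.628 in vector cells (SD, n = 3). FOS took the seventh place in plasmid cells, at 5.81 ± 0.0915 CPM per kilobase, and the fourth in vector cells, at 55.0 ± 1.86, just under FOSL1 at 59.2 ± 0.494. FOSB stood at 0.240 ± 0.0065 in plasmid and 15.5 ± 0.280 CPM per kilobase in vector cells, where it was above ATF3. No neighbours in the order had overlapping ranges in either group of this experiment.

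In the resistance experiment JUNB and FOSL2 stood at 198 ± 25.2 and 71.3 ± 2.86 CPM per kilobase in resistant cells, against 226.6 ± 1.45 and 93.2 ± 2.01 in parental cells. In resistant cells FOSL1 and JUND overlapped, at 32.0 ± 2.34 and 30.4 ± 3.89 CPM per kilobase, as did EGR1 and FOS, at 16.5 ± 0.381 and 15.7 ± 0.934. In parental cells no neighbours overlapped, and EGR1, at 7.10 ± 0.293, stood below FOS, at 9.12 ± 0.496 CPM per kilobase. FOSB was near the bottom, at 0.770 ± 0.094 in resistant and 0.096 ± 0.020 CPM per kilobase in parental cells. The tables were normalised separately, so levels set across them are not tested. Side by side, FOSB stood at 86.3 ± 1.55 CPM in vector libraries and at 0.534 ± 0.110 CPM in parental libraries. FOS stood at 178 ± 6.02 CPM in vector and 29.5 ± 1.60 CPM in parental libraries.

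The share of each gene within its family does not hang on library scaling. FOS made up 3.37%, 3.38% and 3.36% of FOS family transcripts per kilobase in plasmid libraries, against 22.8%, 23.8% and 24.1% in vector libraries. FOSB made up 0.139% ± 0.0053 in plasmid and 6.65% ± 0.096 in vector cells. FOSL2 held the larger share in plasmid cells, at 71.3% ± 1.06 in plasmid against 44.5% ± 0.445 in vector cells, while FOSL1 held 25.2% ± 1.07 and 25.3% ± 0.273. The summed level of the family was 173 ± 2.69 in plasmid and 234 ± 1.17 CPM per kilobase in vector cells. FOS family transcripts were thus mostly FOSL2 in plasmid cells and more evenly spread in vector cells.

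In resistant libraries FOS made up 13.5%, 12.5% and 13.3% of the family, against 5.75%, 6.25% and 5.80% in parental libraries. FOSL1 held 26.7% ± 1.98 in resistant cells, against 33.3% ± 0.556 in parental cells, and FOSL2 held 59.5% ± 2.14 and 60.7% ± 0.329, which overlapped. The family's summed level was 119.8 ± 2.30 in resistant and 154 ± 2.55 CPM per kilobase in parental cells.

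Within the JUN family, JUN held 16.6% ± 0.166 in plasmid and 17.3% ± 0.512 in vector cells, JUNB 73.9% ± 0.389 and 70.9% ± 0.787, and JUND 9.53% ± 0.226 and 11.7% ± 0.278. In resistant libraries JUND made up 12.6%, 12.5% and 12.5%, against 8.78%, 8.96% and 9.06% in parental libraries. By this measure resistant library 1, the highest for JUNB and JUND levels, lay with the other resistant libraries. The ratio of summed FOS to summed JUN transcripts per kilobase was 0.852 ± 0.031 in plasmid and 0.871 ± 0.0061 in vector cells, which overlapped. It was 0.439, 0.505 and 0.553 in resistant libraries, all below the 0.567, 0.584 and 0.589 of parental libraries.

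**Figure D3:**
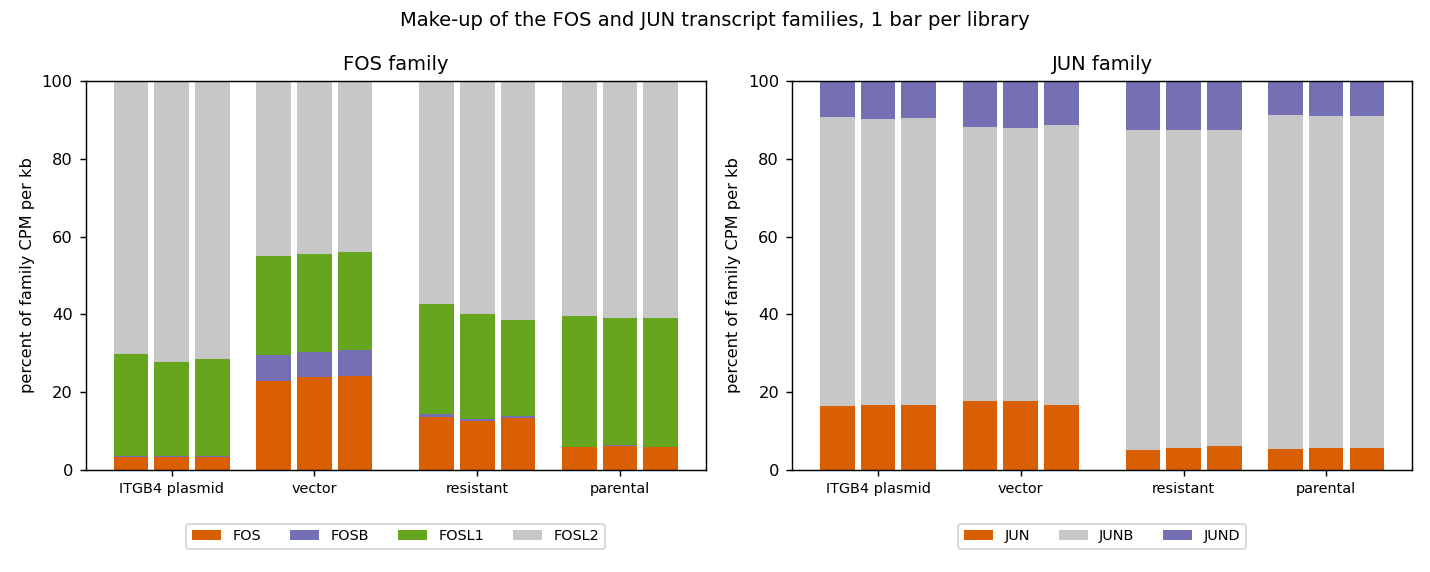
Percent of family transcripts, as CPM per kilobase of exon (vertical axis), held by each FOS gene (left) and each JUN gene (right), with 1 bar per library and 3 libraries per group. FOS and FOSB together fill little of the plasmid bars, at 3.37% and 0.139% on average, against 23.6% and 6.65% of the vector bars.

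Other genes of the pathway were counted from 6 lists that hold no member and were chosen, like the members, with earlier results of these data known. Their counts stand beside 72.2% of all genes called in plasmid cells, 36.5% higher and 35.7% lower, and 54.5% in resistant cells, 26.8% higher and 27.7% lower. Genes named from the lists were picked by their smallest p, so the p-values given only order them. The spread between replicates behind these p-values may be technical. Of 38 immediate-early and early-response genes 36 were tested in plasmid cells, of which 30 were lower and 6 higher, with a median log2 fold change of -1.13. Those with the smallest p were DUSP5, a phosphatase of ERK (log2 -1.88 ± 0.030, edgeR adjusted p = 3.61e-18), BTG2, an antiproliferative gene (-1.52 ± 0.026, adjusted p = 7.97e-18), PLK2, a polo-like kinase (-1.63 ± 0.029, adjusted p = 1.25e-17), and TRIB1, a pseudokinase (-1.74 ± 0.031, adjusted p = 1.65e-17). EGR2 and EGR4, among the lower genes of this list in plasmid cells, passed the low-count filter through the vector libraries alone. They could only be called lower, and whether other listed genes passed in this way was not tested. In resistant cells 8 of 35 tested genes of this list were higher and 16 lower, with a median of -0.21. There DUSP5 (-1.22 ± 0.038, adjusted p = 4.30e-14), the kinase SGK1 (-1.88 ± 0.061, adjusted p = 7.24e-14) and NFKBIZ (-1.07 ± 0.047, adjusted p = 3.89e-12) were lower, and BTG2 was higher (0.87 ± 0.040, adjusted p = 8.15e-12). DUSP5 was thus lower in both experiments, while BTG2 was lower in plasmid and higher in resistant cells, as FOS was.

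Genes linked to AP-1 as targets had 11 higher and 12 lower of 23 tested in plasmid cells, and 2 higher and 18 lower of 22 tested in resistant cells, with medians of -0.15 and -0.50. In plasmid cells PLAU, the urokinase protease, was 3.55-fold lower and its receptor PLAUR 8.92-fold higher (edgeR adjusted p = 1.04e-18 and adjusted p = 7.97e-18). LIF, a cytokine, was 2.88-fold lower there (adjusted p = 1.56e-17), and EMP1, an epithelial membrane protein, 2.79-fold higher (adjusted p = 7.77e-16). In resistant cells the collagenase MMP13 was 5.75-fold lower (adjusted p = 6.22e-15), CXCL8, a neutrophil chemokine, 3.85-fold lower (adjusted p = 1.42e-16), and SPRR1A, a cornified envelope protein, 4.66-fold lower (adjusted p = 2.07e-15).

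Genes linked to EGR1 had 6 higher and 7 lower of 14 in plasmid cells, and 3 higher and 7 lower of 14 in resistant cells. In plasmid cells, where EGR1 was lower, the genes with the smallest p moved both ways. THBS1, a matricellular protein, was 6.66-fold lower there, at 915 ± 8.04 CPM against 6093 ± 73.9 CPM in vector cells (edgeR adjusted p = 3.05e-22), and GDF15, a stress-induced cytokine, was 2.09-fold lower (adjusted p = 4.11e-15). FN1, which encodes fibronectin, was 2.05-fold higher in plasmid cells (adjusted p = 6.91e-16), and the prostaglandin E synthase PTGES 1.66-fold higher (adjusted p = 3.49e-13). In resistant cells, where EGR1 was higher, PTGES was 2.23-fold lower (adjusted p = 2.71e-13), F3, the tissue factor gene, 3.67-fold lower (adjusted p = 8.56e-11) and FN1 1.65-fold lower (adjusted p = 1.52e-09). NAB2, a corepressor of EGR1 that EGR1 induces, was 2.13-fold higher in resistant cells, at 14.0 ± 0.887 CPM against 6.57 ± 0.312 CPM in parental cells (adjusted p = 9.02e-08). It was also higher in plasmid cells (log2 0.48, adjusted p = 2.40e-08), where EGR1 was lower.

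Upstream, 9 of 24 genes of the MAPK cascade were higher and 14 lower in plasmid cells, and 2 higher and 12 lower in resistant cells. In plasmid cells the kinases RPS6KA2 (log2 -1.14 ± 0.038), MAP2K5 (-0.83 ± 0.047) and RPS6KA5 (-0.98 ± 0.059) were lower and MAPK7, which MAP2K5 activates, was higher (1.03 ± 0.066). MAP2K1, which activates ERK, stood at 82.5 ± 0.913 CPM in resistant and 172 ± 5.36 CPM in parental cells (edgeR adjusted p = 2.07e-12). MAP2K2 (log2 -0.76 ± 0.057), RPS6KA3 (-0.55 ± 0.045) and MAPK14 (-0.56 ± 0.047) were lower in resistant cells too.

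SRF, ETS and NAB factors had 5 higher and 6 lower of 12 in plasmid cells and 4 higher and 6 lower of 12 in resistant cells. In plasmid cells ETV5 (log2 -0.97 ± 0.036), ETS1 (-0.34 ± 0.026) and ETS2 (-0.35 ± 0.028) were lower, and ELK3 was higher (0.75 ± 0.055). In resistant cells ETS2 was higher (0.70 ± 0.040), as was NAB2, while ETS1 (-0.68 ± 0.053) and ELK3 (-0.78 ± 0.091) were lower. ETS1 was thus lower in both experiments, and ETS2 and ELK3 had opposite signs to each other in each.

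Other zipper factors had 7 higher and 13 lower of 24 in plasmid cells, and 9 higher and 10 lower of 24 in resistant cells. BATF2, an interferon-induced partner of JUN proteins, stood at 85.8 ± 2.75 CPM in plasmid and 6.60 ± 0.543 CPM in vector cells (edgeR adjusted p = 1.10e-18), and at 84.5 ± 4.35 CPM in resistant and 140.5 ± 3.92 CPM in parental cells (adjusted p = 1.13e-09). CREB1, which binds the cAMP response element, was higher in plasmid cells (log2 1.22 ± 0.036), and MAFF (-1.16 ± 0.031) and ATF5 (-1.18 ± 0.046) were lower. In resistant cells ATF5 was higher (0.58 ± 0.048), and MAFG (-0.52 ± 0.041) and CEBPD (-0.68 ± 0.067) were lower.

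With library sizes alone the median of all genes in the resistance comparison moved to 0.18, against 0.018 with TMM scaling. The lists then had other splits in resistant cells: 10 higher and 13 lower immediate-early genes, 4 and 14 AP-1-linked targets, 5 and 3 EGR1-linked targets, 4 and 8 MAPK genes, 6 and 4 SRF, ETS and NAB factors, and 12 and 9 other zipper factors. Members were then 5 higher and 2 lower, JUNB being no longer called. Over all genes tested the calls were then 6548 higher and 3111 lower, against 4520 and 4679.

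**Figure D4:**
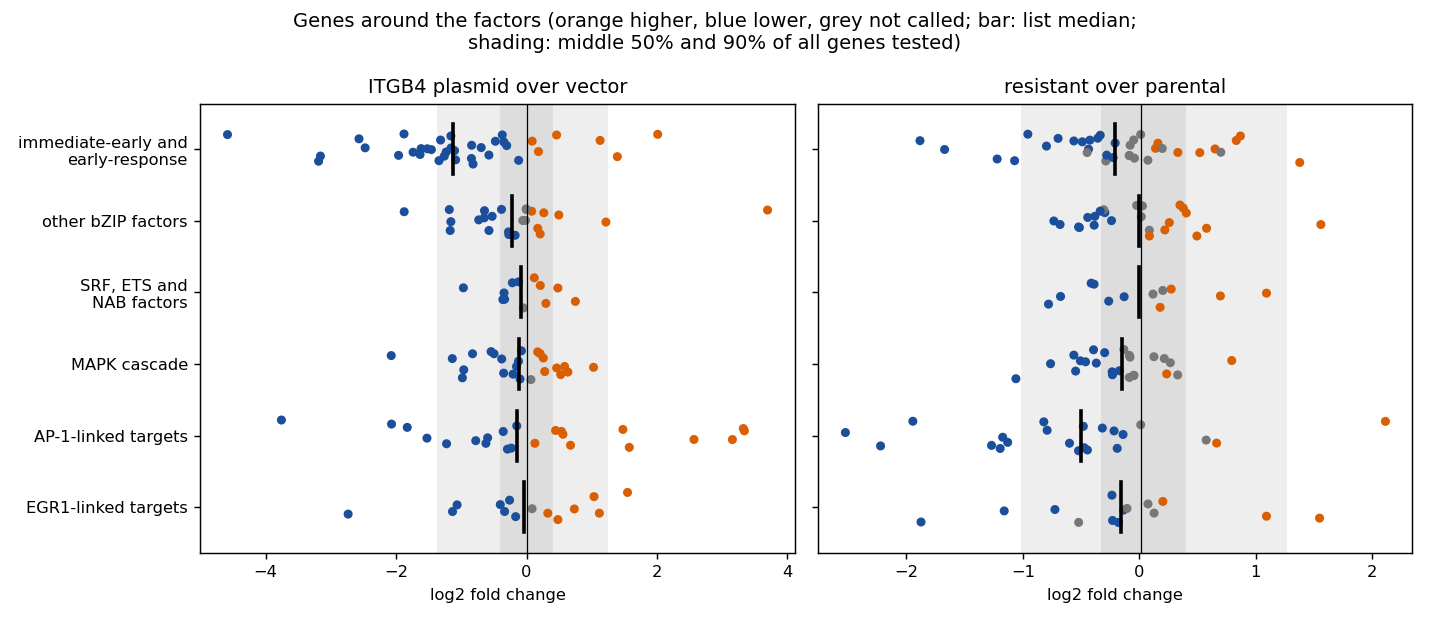
Log2 fold change (horizontal axis) of every tested gene of the 6 lists, plasmid over vector on the left and resistant over parental on the right; black bars are list medians and shading runs between the quartiles of all genes tested, with a paler, wider range outside it. Most immediate-early and early-response genes lie left of 0 for the plasmid, with a median of -1.13.

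The genes whose pair of fold changes lay nearest to that of FOS, by Euclidean distance over both comparisons among 11453 protein-coding genes at 1 CPM or more, were PCLO, SOX21, FAM43A, BMP2 and ABCA1. PCLO, a presynaptic scaffold protein, was at a distance of 0.047, with log2 fold changes of -3.28 ± 0.048 in plasmid and 0.81 ± 0.15 in resistant cells. ABCA1, a cholesterol exporter and the fifth in order, was at 0.41, with -2.86 ± 0.073 and 0.64 ± 0.053. This likeness rests on 2 fold changes a gene, and FOS itself was chosen with its values known.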

How the data were processed

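The authors deposited 2 tables of raw counts per gene, 1 per experiment. Per the file headers, read pairs of the overexpression libraries were counted over exons with featureCounts 2.0.1 against Ensembl release 107 of GRCh38, with no strand option. For the resistance table the sources used here give no counter, annotation or strand setting. The submitters' processing notes name hg38. Columns were matched to samples by title, except the parental ones, headed NC, whose group was inferred because the vector samples have columns of their own in the other table. In the overexpression samples, another label field names ITGB5 or ITGB6 for replicates 2 and 3, where the titles name ITGB4. Symbols were found for 61757 of 61860 and 62700 of 62700 identifiers.

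Each experiment was fitted by itself with edgeR 4.0.16 (R 4.3.3): filterByExpr, TMM factors, the quasi-likelihood test and Benjamini-Hochberg adjustment over all genes tested, with calls at 0.05. The ± beside a log2 fold change is that change over the root of its F statistic. The procedure was also run on simulated counts, in which far fewer genes changed than were called here. That run therefore does not test how calls behave in these comparisons. The common biological coefficient of variation was 2.65% for overexpression and 6.97% for resistance. Other settings tried were RLE factors or library sizes in place of TMM, DESeq2 1.42.0, voom in limma 3.58.1, 2 other low-count filters, testing against 1.5-fold, a joint fit of the 12 libraries, a replicate block, and omission of each library in turn.

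The members and the lists were chosen with earlier results of these data known. Named list genes are up to 4 called genes per list and comparison, with the smallest p and a mean of at least 1 CPM, and the 5 genes nearest to FOS. 1 gene that this rule names is not reported here. Promoter windows are RefSeq's and lengths are GENCODE 29's.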

Additional observations from a re-analysis of the deposited data

How the results depend on the processing

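Of the alternatives, the threshold of 1.5-fold moved the counts: it called 5 of 10 members for overexpression in place of 10 and 4 of 9 for resistance in place of 8, and 62 listed pathway genes in place of 124 and 32 in place of 95. Leaving out 1 library gave 10 to 10 and 7 to 8 called members, and 119 to 123 and 85 to 97 listed genes. The sign of JUN in the resistance comparison turned with library sizes alone, at 0.067 on the log2 scale. With those sizes 40 listed genes were higher and 50 lower in resistant cells, against 27 and 68. DESeq2 called 10 and 7 members.

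With the replicate block the overexpression fit called the same number, 10 members and 124 listed genes. Same-numbered plasmid and vector libraries correlated at -0.20, -0.20 and 0.028 in their deviations from the group means, over 6219 genes, so the numbers were not taken as pairs. The parental columns carry no number tied to a sample, so no block was fitted for resistance.

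FOSB in parental cells rests on 15 to 23 counts per library and EGR3 on at most 52, which limits the precision of their folds; the fitted EGR3 value hangs on the prior count.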
